A study of Homo sapiens with 15 samples.

Results

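CDKN1A, MDM2 and 8 further genes that the tumour suppressor p53 is known to switch on were followed in C42B cells. This human prostate cancer line was derived from LNCaP and grows without androgen. The members were chosen by gene symbol, and 9 of the 10 had a probe set with that symbol, 1 each, among 17687 named genes on the arrays. BTG2 was the tenth and is not analysed here. CDKN1A, MDM2 and TP53I3 had been picked from earlier results of these same 15 arrays. Their values are therefore given as a description, with no test. The other 6 measured genes, TP53INP1, GADD45A, PPM1D, ZMAT3, FAS and RRM2B, were tested.

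All cells were exposed for 6 h, and by their labels the groups differed in the agents added. DMSO, the vehicle, was given alone at 0.125% (3 arrays). Enzalutamide, which blocks the androgen receptor, was given at 10 µM (2 arrays). PF-543, an inhibitor of sphingosine kinase 1, was given at 15 µM without (3 arrays) and with 10 µM enzalutamide (3 arrays). ABC294640 (opaganib), an inhibitor of sphingosine kinase 2, was given at 15 µM without (1 array) and with 10 µM enzalutamide (3 arrays). The labels give the vehicle's share only for the DMSO group. Values are log2 expression per probe set, so a difference of 1 is a doubling. Nothing in the labels says whether replicates came from different dishes. The p-values therefore reflect the scatter among these arrays, and that scatter may be technical. In such bulk RNA, more transcript per cell and a larger share of responding cells cannot be told apart.

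The protein p53 is kept low by MDM2, a ubiquitin ligase that binds it and marks it for destruction. When stress frees p53 from MDM2, it binds DNA and raises genes that halt the cell cycle, repair DNA or start cell death. MDM2 is itself one of its targets, which closes a feedback loop. CDKN1A encodes p21, an inhibitor of cyclin-dependent kinases and the best known arrest target. Many p53 targets also answer to other transcription factors, so their RNA alone does not report p53 activity.

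The promoters of CDKN1A and MDM2 are shown because both genes were high in the same arrays and because their starts differ in what they hold. Of the 10 genes, 7 had windows of 300 bases in the RefSeq promoter table (GRCh38.p14), from 250 bases before to 50 bases after a transcription start. Each window was searched on both strands for the p53 consensus response element, 20 bases long with no spacer, allowing at most 2 mismatches and keeping its core C and G bases. Such a match stood in 0.285% of all 35116 windows. MDM2 has 4 windows around its 2 groups of starts. The window of its downstream promoter shown here held a match at positions -94 to -75, in capitals in the MDM2 line, which covers chr12:68808767-68809016 on the plus strand. The CDKN1A line covers chr6:36678464-36678713 on the plus strand. There the capitals mark GGGCGG, the GC box to which Sp1-type factors bind, searched on both strands. It occurs 4 times there, with 2 of the copies overlapping. At least 4 such boxes stood in 9.06% of all windows. The MDM2 window shown holds 1 such box, which is left in lower case in its line. No p53 element was found in this CDKN1A window, which says only that the letters are not there. The p53 sites described for CDKN1A lie further upstream than the window reaches. One of the 3 FAS windows also held a match, at position -122. The windows of TP53I3, PPM1D, ZMAT3 and BTG2 held none.
CDKN1A: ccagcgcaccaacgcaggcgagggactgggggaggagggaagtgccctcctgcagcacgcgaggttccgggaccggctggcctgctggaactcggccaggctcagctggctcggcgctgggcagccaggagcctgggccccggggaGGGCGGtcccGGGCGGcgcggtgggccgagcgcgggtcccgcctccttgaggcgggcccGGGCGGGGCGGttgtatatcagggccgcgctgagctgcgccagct
MDM2: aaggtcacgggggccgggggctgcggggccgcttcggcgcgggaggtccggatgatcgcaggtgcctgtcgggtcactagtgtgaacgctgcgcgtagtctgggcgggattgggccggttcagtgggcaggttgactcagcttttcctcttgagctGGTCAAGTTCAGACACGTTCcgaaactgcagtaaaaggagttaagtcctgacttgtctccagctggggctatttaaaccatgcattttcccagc

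The arrays carried the RNA of a prostate luminal line. All 8 of 10 listed luminal markers with a probe set, KLK3 and FOLH1 among them, lay above the median over all genes. All 9 of 12 listed markers of blood, fibroblasts, endothelium and basal epithelium with a probe set lay below it. The 3 DMSO arrays stood apart from the 12 treated ones. On the first principal component, with 15.3% of the variance, DMSO arrays lay between 18.9 and 24.8 and treated arrays between -11.6 and 0.03. The PF-543 difference of each member from DMSO is for this reason given together with one that uses no DMSO array. The spread used for the p-values of both was pooled over all 15 arrays.

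CDKN1A, MDM2 and TP53INP1 were higher in every array with PF-543 than in every array without it, whether enzalutamide was present or not. Of all 17687 genes, 44 (0.249%) were separated in this way, and these 3 were the only ones among the 9 measured members and the 80 further genes listed for this report. Nothing is read from the count for CDKN1A and MDM2, which were picked. The separation of TP53INP1, which was not, was noticed in the data and is a description.

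CDKN1A, the p21 gene that halts the cell cycle, had the widest gap of the 3. With PF-543 alone its log2 values were 9.22, 9.30 and 9.41, and with PF-543 plus enzalutamide they were 9.37, 9.30 and 9.38. DMSO arrays were at 8.82, 8.24 and 8.56, and enzalutamide arrays at 8.75 and 8.48. The ABC294640 array was at 8.71, and the arrays with ABC294640 plus enzalutamide were at 8.37, 8.41 and 8.66. The lowest array with PF-543 thus lay 0.40 above the highest without it, while the 4 groups without PF-543 overlapped. PF-543 alone was 1.71-fold above DMSO (log2 0.77, SE 0.14). The combination with enzalutamide was 1.66-fold above enzalutamide alone, a comparison with no array in common with the first. Among all 17687 genes ordered from the highest difference, CDKN1A stood at place 33 in the first comparison and place 30 in the second. It stood at place 7 when the combination with PF-543 was set against that with ABC294640 (log2 0.87, SE 0.14). These places are a description and lend no support, since CDKN1A was picked from results of these arrays.

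MDM2, the ligase that restrains p53, was higher in the same arrays by a smaller amount. PF-543 alone gave log2 values of 11.72, 11.80 and 11.76, and the combination with enzalutamide gave 11.65, 11.69 and 11.68. In DMSO MDM2 was at 11.29, 11.42 and 11.32, and with enzalutamide at 11.33 and 11.31. The ABC294640 array was at 11.42, and the arrays with ABC294640 plus enzalutamide at 11.58, 11.45 and 11.37. The gap between the lowest array with PF-543 and the highest without it was 0.07 here, and that highest array belonged to ABC294640 plus enzalutamide. PF-543 alone was 1.33-fold above DMSO (log2 0.42, SE 0.08), and the combination was 1.28-fold above enzalutamide (log2 0.35, SE 0.09). These arrays do not tell transcripts of the downstream MDM2 promoter from those of the upstream one, since a single probe set stands for the gene.

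TP53INP1, a p53-induced protein tied to cell death and autophagy, had log2 values of 8.39, 8.44 and 8.26 with PF-543 and 8.39, 8.07 and 8.10 with PF-543 plus enzalutamide. It was at 7.89, 7.84 and 7.46 in DMSO and at 7.70 and 7.45 with enzalutamide. The ABC294640 array was at 7.73, and ABC294640 plus enzalutamide gave 7.90, 7.53 and 7.91. All 6 arrays with PF-543 were above all 9 others, with the closest pair 0.16 apart. TP53INP1 was 1.55-fold higher with PF-543 than with DMSO (log2 0.63, SE 0.15), which did not pass the test across all genes (limma adjusted p = 0.0734). It was 1.53-fold higher with the combination than with enzalutamide (log2 0.61, SE 0.16, limma adjusted p = 0.361). The difference between these 2 PF-543 differences was -0.02 (95% CI -0.49 to 0.45, limma adjusted p = 0.986). After the data were seen, both PF-543 differences were averaged in 1 contrast over 11 arrays. TP53INP1 then passed, at log2 0.62 (SE 0.11, limma adjusted p = 0.0298), as the only 1 of the 6 tested members, where 0.351% of all genes passed. That p is helped by the choice of the contrast.

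**Figure D1:**
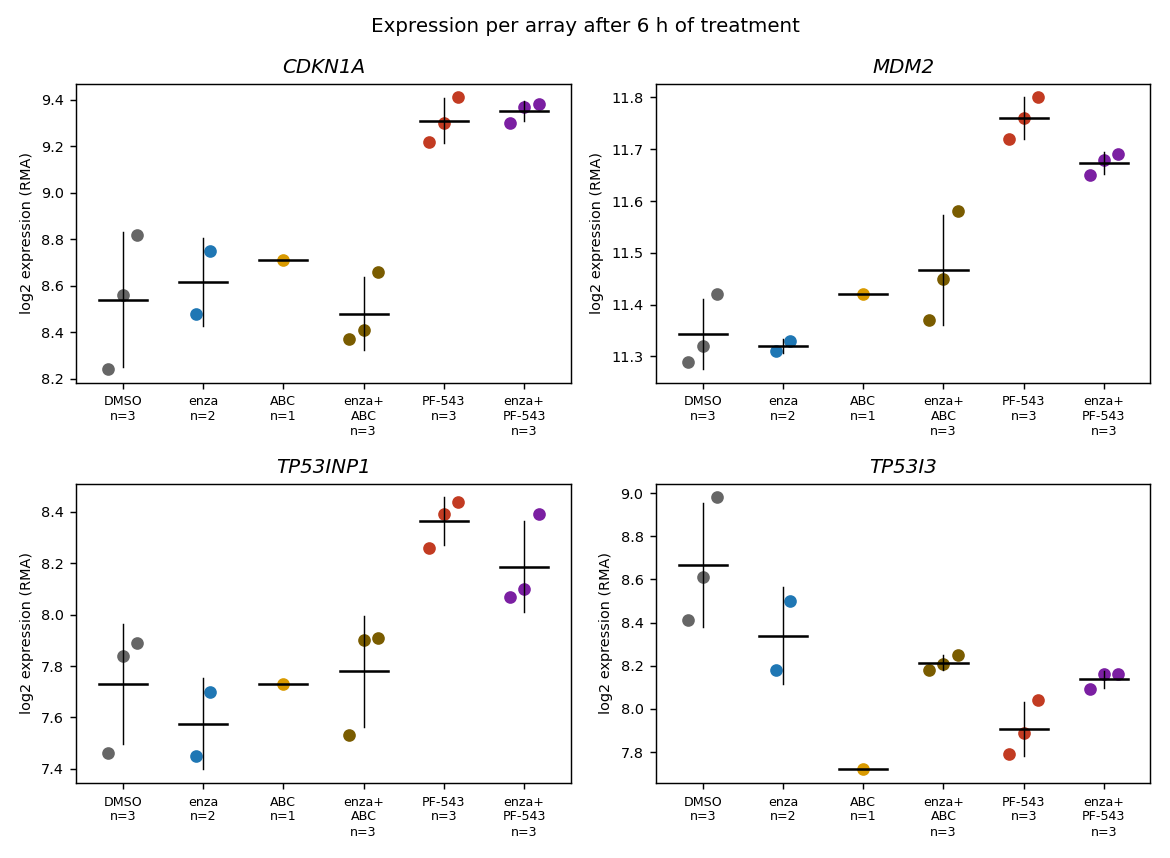
Log2 expression of CDKN1A, MDM2, TP53INP1 and TP53I3 in each of the 15 arrays, by group (enza is enzalutamide, ABC is ABC294640). Points are arrays, horizontal bars are group means and vertical lines are 1 SD where a group has more than 1 array. The 6 arrays with PF-543 lie above all 9 others for the first 3 genes, and for TP53I3 the DMSO group has the highest mean.

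TP53I3 took another course. It encodes a quinone oxidoreductase-like protein that p53 induces and that is tied to oxidative stress before cell death. Its log2 values were highest in DMSO, at 8.61, 8.98 and 8.41, followed by enzalutamide at 8.50 and 8.18. ABC294640 plus enzalutamide gave 8.18, 8.21 and 8.25, and PF-543 plus enzalutamide gave 8.09, 8.16 and 8.16. PF-543 alone was at 7.89, 7.79 and 8.04, and the ABC294640 array was lowest at 7.72. The DMSO and enzalutamide ranges overlapped, as did enzalutamide and ABC294640 plus enzalutamide, while the other neighbours in this order did not. Against DMSO, TP53I3 was 1.69-fold lower with PF-543 (log2 -0.76, SE 0.13), 1.93-fold lower on the ABC294640 array (log2 -0.95, SE 0.19) and 1.25-fold lower with enzalutamide (log2 -0.33, SE 0.15).

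In the comparisons with enzalutamide as the control, TP53I3 was at log2 -0.20 with PF-543 added (SE 0.15) and at -0.13 with ABC294640 added (SE 0.15). Both depended on the enzalutamide arrays. Leaving out enzalutamide replicate 1 gave -0.04 and 0.03, and leaving out replicate 2 gave -0.36 and -0.29. Enzalutamide added to PF-543 gave 0.23 (SE 0.13), with no overlap between the arrays. Added to ABC294640 it gave 0.49 (SE 0.19), against a single array. None of these 4 comparisons uses a DMSO array. Against DMSO, enzalutamide gave the -0.33 above, which was -0.49 without enzalutamide replicate 1 and -0.17 without either enzalutamide replicate 2 or DMSO replicate 2. The enzalutamide difference was below 0 without PF-543 and above 0 with it. These differences were 0.56 apart (95% CI 0.12 to 0.99), a value that includes the DMSO arrays. With 1 array left out in turn this value lay between 0.40 and 0.72. The interval shows precision and is no test, since TP53I3 was picked from results. The enzalutamide difference was also higher with ABC294640 than without an inhibitor, by 0.82 (SE 0.24). That value uses the same DMSO and enzalutamide arrays and rests on the single ABC294640 array. The DMSO arrays, which stood apart over all genes, were the higher side of the 3 differences from DMSO given above. Their part in this result was not tested.

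GADD45A, which slows the cycle and takes part in DNA repair after stress, varied more within groups. In DMSO its log2 values were 7.50, 7.54 and 7.47. With PF-543 they were 7.68, 7.66 and 8.23, and with PF-543 plus enzalutamide 7.82, 8.31 and 7.88. Enzalutamide arrays were at 7.79 and 7.11, the ABC294640 array at 7.74 and ABC294640 plus enzalutamide at 8.23, 7.90 and 7.62. Both groups with PF-543 lay above their own control group without overlap, as 10.2% of all genes did for PF-543 against DMSO and 12.8% for the combination against enzalutamide. The differences were log2 0.35 (SE 0.21, limma adjusted p = 0.45) and 0.55 (SE 0.24, limma adjusted p = 0.599). Without PF-543 replicate 3 the first was 0.17. The second was 0.89 without enzalutamide replicate 1 and 0.21 without replicate 2. With ABC294640 in place of PF-543 the difference from enzalutamide was 0.47 (SE 0.24, limma adjusted p = 0.765). That last difference was 0.81 without enzalutamide replicate 1 and 0.13 without replicate 2. The direct difference between the combinations was 0.09 (95% CI -0.37 to 0.55).

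PPM1D encodes the phosphatase Wip1, which removes activating phosphates from p53 and its kinases and so forms another feedback arm. Its log2 values ran from 10.45 to 10.90 over the 15 arrays, with the highest in DMSO and the lowest shared by an enzalutamide array and an array with PF-543 plus enzalutamide. PF-543 differed from DMSO by 0.06 (95% CI -0.18 to 0.30, limma adjusted p = 0.844). In the combination it differed from enzalutamide by 0.05 (95% CI -0.22 to 0.32, limma adjusted p = 0.954). The arrays with and without PF-543 overlapped over most of their range, unlike those for MDM2, the other feedback gene. Nothing is read from that contrast, since MDM2 was picked from results.

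ZMAT3, a zinc finger RNA-binding protein, was at 8.67, 8.38 and 8.69 with PF-543 and at 8.35, 8.44 and 8.06 in DMSO. That difference was 0.30 (95% CI -0.02 to 0.62, limma adjusted p = 0.358). With enzalutamide present the PF-543 arrays were at 8.42, 8.11 and 8.29 and the enzalutamide arrays at 8.42 and 8.14, which is a difference of -0.01 (95% CI -0.36 to 0.35). The lowest value, 7.92, belonged to the ABC294640 array, and the arrays with ABC294640 plus enzalutamide were at 8.70, 8.26 and 8.53. Enzalutamide added to ABC294640 thus gave 0.58 (SE 0.21, limma adjusted p = 0.565), which rests on that single array.

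RRM2B encodes p53R2, a ribonucleotide reductase subunit that supplies nucleotides for DNA repair. Its values stayed between 11.44 and 11.80, the narrowest range of the 9 genes, with 6 arrays with PF-543 at 11.52 to 11.80 and the others at 11.44 to 11.78. FAS, a death receptor, was the dimmest, at 5.12 to 6.17. Its DMSO arrays alone spanned 5.12 to 6.17, as wide as the whole series. PF-543 differed from DMSO by 0.04 for RRM2B (95% CI -0.21 to 0.29) and by -0.24 for FAS (95% CI -0.75 to 0.27). In the combination against enzalutamide the differences were 0.12 (95% CI -0.16 to 0.41) and -0.10 (95% CI -0.67 to 0.46). None of these 4 differences passed, with limma adjusted p from 0.67 to 0.954.

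**Figure D2:**
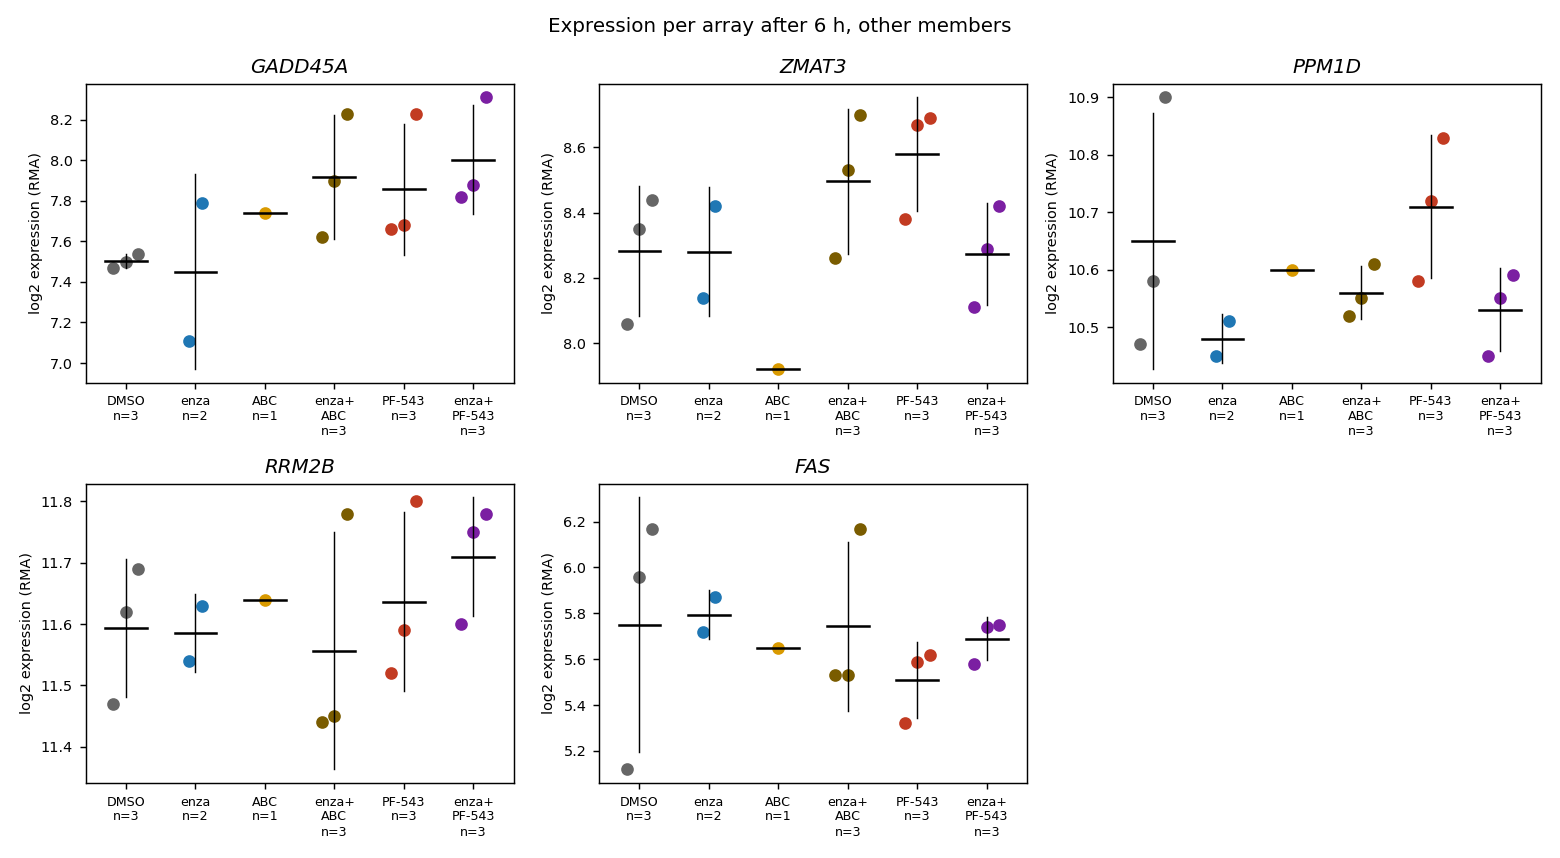
Log2 expression of GADD45A, ZMAT3, PPM1D, RRM2B and FAS in each of the 15 arrays, by group (enza is enzalutamide, ABC is ABC294640). Points are arrays, horizontal bars are group means and vertical lines are 1 SD. Arrays with and without PF-543 overlap for each of these genes, and the FAS axis spans the DMSO arrays from 5.12 to 6.17.

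Over all 13 comparisons, 0 of the 6 tested members passed (limma, adjusted p under 0.05). The background was 0.565% of all genes for PF-543 against DMSO, 0.0283% for PF-543 added to enzalutamide and 2.02% for that combination against DMSO. It was 0.311% for enzalutamide against DMSO, 0.311% for enzalutamide added to PF-543 and 0.701% for ABC294640 plus enzalutamide against DMSO. For the direct comparison of the combinations it was 0.0961%, for that of the inhibitors alone 0.017%, and for enzalutamide added to ABC294640 0.0792%. It was 0 for ABC294640 against DMSO, for ABC294640 added to enzalutamide and for both interactions. With so few genes called, 0 of 6 lies near the background everywhere. At an unadjusted p under 0.05, TP53INP1 was the 1 member of 6 for PF-543 against DMSO, where 15.5% of all genes were, so the count is near the background. TP53INP1 and GADD45A were the 2 for the combination against enzalutamide, where 7.83% of all genes were. A robust prior with a trend in limma called 1 member, TP53INP1, for PF-543 against DMSO, with 3.09% of all genes called.

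With enzalutamide alone, TP53I3 had the largest difference from DMSO among the 9 genes, at log2 -0.33. CDKN1A differed by 0.08 (SE 0.15) and MDM2 by -0.02 (SE 0.09). The 6 tested members had differences from -0.17 for PPM1D to 0.05 for FAS, with limma adjusted p from 0.611 to 0.996. The widest intervals were those of FAS (95% CI -0.52 to 0.61) and GADD45A (95% CI -0.57 to 0.46). Those of TP53INP1 (-0.51 to 0.20), PPM1D (-0.44 to 0.10), ZMAT3 (-0.36 to 0.35) and CDKN1A (-0.26 to 0.41) also reached differences as large as that of TP53I3. Closeness to DMSO is thus not shown for any of these genes. On top of PF-543, enzalutamide gave a difference of 0.04 for CDKN1A (SE 0.14) and -0.09 for MDM2 (SE 0.08). The PF-543 difference with enzalutamide minus that without it had a 95% CI of -0.48 to 0.41 for CDKN1A and of -0.33 to 0.20 for MDM2.

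The kinase inhibitors were used at the same dose of 15 µM for the same time. ABC294640 added to enzalutamide gave -0.14 for CDKN1A (SE 0.15) and 0.15 for MDM2 (SE 0.09). Set against each other in the presence of enzalutamide, PF-543 gave 1.83-fold more CDKN1A and 1.15-fold more MDM2 than ABC294640 (log2 0.21, SE 0.08). For TP53INP1 the excess was 1.33-fold and did not pass (log2 0.41, SE 0.15, limma adjusted p = 0.544). Without enzalutamide the same 3 genes were higher with PF-543 than on the ABC294640 array, by log2 0.60 (SE 0.20), 0.34 (SE 0.12) and 0.63 (SE 0.21, limma adjusted p = 0.678). ZMAT3 was higher with PF-543 there too, by log2 0.66, which was more than for any of these 3 genes. In the presence of enzalutamide ZMAT3 lay on the other side, at -0.22 with PF-543 against ABC294640 (SE 0.15). The comparison without enzalutamide rests on 1 array of ABC294640, to which the spread of the other groups was lent.

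**Figure D3:**
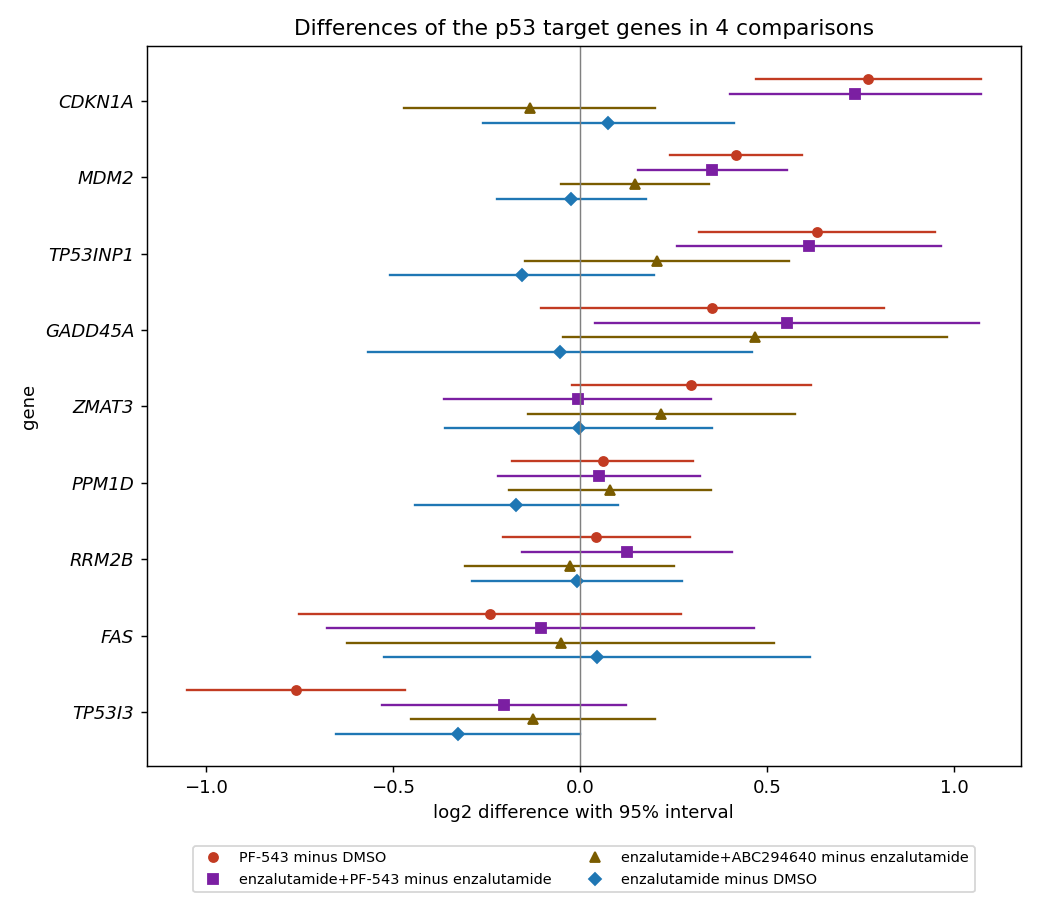
Log2 differences of the 9 measured genes with 95% intervals in 4 comparisons: PF-543 minus DMSO, each inhibitor plus enzalutamide minus enzalutamide, and enzalutamide minus DMSO. CDKN1A, MDM2 and TP53INP1 lie to the right of 0 in both PF-543 comparisons, and TP53I3 lies farthest to the left, at -0.76 for PF-543 minus DMSO. The intervals of CDKN1A, MDM2 and TP53I3 show precision and are no test, since these genes were picked from results.

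Further p53 targets were set beside the members. Of 47 further targets in 3 lists (cell cycle and signalling, apoptosis, DNA repair and metabolism), 40 were measured. For PF-543 against DMSO 0 of them passed in limma, with a median difference of 0.05 where all genes had -0.01. At an unadjusted p under 0.05 there were 12 of the 40, where 15.5% of all genes were. For the combination against enzalutamide 0 passed, and 4 did at an unadjusted p under 0.05, where 7.83% of all genes did. Their median was 0.06 where all genes had 0.005. These 2 comparisons share no array. In both, 16 of the 40 (40%) were above 0 and 10 were below. Of all 17687 genes, 4815 (27.2%) were above 0 in both and 4973 were below 0 in both. Of the 6 members not picked from results, TP53INP1, GADD45A, PPM1D and RRM2B were above 0 in both, FAS was below in both and ZMAT3 was on opposite sides.

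The apoptosis targets had differences on both sides of 0. Of the 14 measured genes of that list 0 passed in any of the 11 comparisons between groups in limma. At an unadjusted p under 0.05 there were 3 for PF-543 against DMSO, where 15.5% of all genes were. For the combination against enzalutamide there were 2, where 7.83% of all genes were. The differences in the list ran from -0.25 to 0.33 for PF-543 against DMSO and from -0.25 to 0.30 for the combination against enzalutamide. The 3 genes that follow were named after their values were seen. The pro-death gene BAX was at -0.20 with PF-543 against DMSO and at -0.01 with the combination against enzalutamide. PMAIP1, which encodes NOXA, was at 0.07 and 0.22, and the death receptor gene TNFRSF10B at 0.18 and 0.30.

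Among the 16 measured cell cycle and signalling targets, GDF15, SESN2 and NINJ1 passed somewhere. GDF15, a secreted stress protein, was at 10.61, 10.23 and 10.05 in DMSO, at 11.09, 10.62 and 11.32 with PF-543 and at 11.78, 11.86 and 11.73 with PF-543 plus enzalutamide. It rose with that combination against DMSO (log2 1.49, SE 0.17, limma adjusted p = 0.00102) and against ABC294640 plus enzalutamide (log2 1.05, SE 0.17, limma adjusted p = 0.0377). For PF-543 against DMSO it was at 0.71 (SE 0.17, limma adjusted p = 0.0824). SESN2, a sestrin that restrains mTORC1, rose against DMSO in all 3 groups with enzalutamide. It was at 0.94 with enzalutamide against DMSO (limma adjusted p = 0.0338), at 1.13 with PF-543 added (limma adjusted p = 0.00281) and at 0.95 with ABC294640 added (limma adjusted p = 0.013). NINJ1, a membrane protein that ruptures dying cells, rose with PF-543 plus enzalutamide against DMSO (log2 0.64, SE 0.12, limma adjusted p = 0.0208). None of these calls was made without DMSO arrays, other than that of GDF15 between the combinations. GDF15 was at 0.90 with PF-543 added to enzalutamide (limma adjusted p = 0.202) and at 0.78 with enzalutamide added to PF-543 (limma adjusted p = 0.106). SESN2 was at 0.67 with enzalutamide added to PF-543 (limma adjusted p = 0.126) and at 0.56 with it added to ABC294640 (limma adjusted p = 0.628). Without enzalutamide SESN2 was at 0.46 with PF-543 and at 0.39 with ABC294640 against DMSO, and neither passed (limma adjusted p = 0.172 and 0.594). NINJ1 was at 0.18 with PF-543 added to enzalutamide (limma adjusted p = 0.796) and at 0.11 with enzalutamide added to PF-543 (limma adjusted p = 0.87). In every treated group NINJ1 was above DMSO, by 0.32 to 0.64. The calls of GDF15 and SESN2 for PF-543 plus enzalutamide against DMSO held with each array left out in turn, with limma adjusted p up to 0.0148 and 0.0359 over all alternatives. The GDF15 call between the combinations was lost without any 1 of its 6 arrays. The NINJ1 call was lost without DMSO replicate 2 or without replicate 1 or 2 of PF-543 plus enzalutamide. The SESN2 call for enzalutamide was lost without either enzalutamide array and without DMSO replicate 1 or 2. That for ABC294640 plus enzalutamide was lost without DMSO replicate 1 or 2 and without replicate 1 or 3 of the combination. GDF15 and SESN2 are also targets of ATF4, the factor of the integrated stress response.

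**Figure D4:**
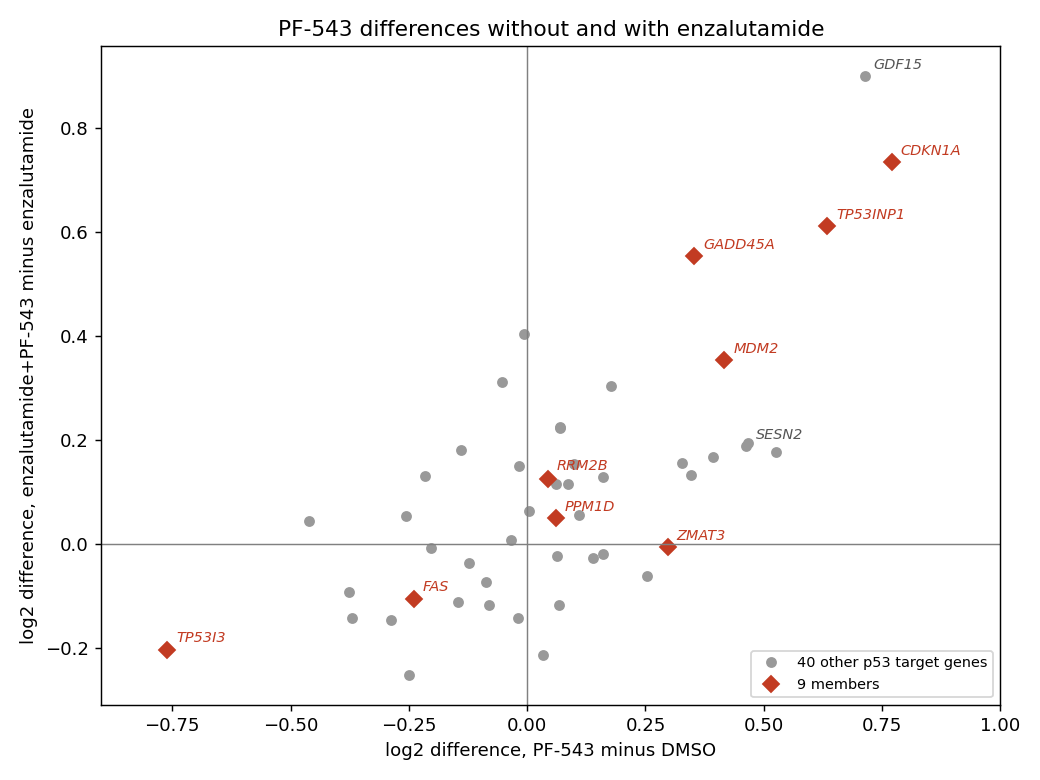
Each point is a gene, placed by its log2 difference for PF-543 minus DMSO (horizontal) and for PF-543 plus enzalutamide minus enzalutamide (vertical), which share no array. Red diamonds are the 9 measured members and grey points 40 other p53 targets. CDKN1A, TP53INP1, GADD45A, MDM2 and GDF15 lie in the upper right, and most grey points lie near 0 on both axes.

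In the list of DNA repair and metabolism targets, with 10 measured, POLH, a DNA polymerase for damaged templates, was the only gene to pass. It fell with PF-543 plus enzalutamide against DMSO (log2 -0.44, SE 0.09, limma adjusted p = 0.0335). In all treated groups POLH was lower than in DMSO, and against enzalutamide the combination was at -0.09 (limma adjusted p = 0.88). The call was lost when any 1 array of the comparison other than DMSO replicate 2 was left out.

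The genes that control p53 had differences on both sides of 0. MDM4, the partner of MDM2 that blocks p53 activity, was at 0.16 with PF-543 against DMSO (SE 0.10, limma adjusted p = 0.434) and at 0.15 with the combination against enzalutamide (SE 0.11, limma adjusted p = 0.779). None of the 10 measured genes of this list of 12 passed in limma in any of the 11 comparisons between groups. Their differences ran from -0.37 to 0.21 for PF-543 against DMSO and from -0.29 to 0.15 for the combination against enzalutamide. At an unadjusted p under 0.05 there was 1 for PF-543 against DMSO, where 15.5% of all genes were. For the combination against enzalutamide there were 0, where 7.83% of all genes were. The gene of p53 itself is not analysed here.

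Genes of the G2 and M phases, which p21 is known to lower through the DREAM repressor complex, did not fall together at 6 h. All 16 were measured, and for PF-543 against DMSO 0 passed in limma, with a median of 0.07, 9 above 0 and a range from -0.41 to 0.16. In the combination against enzalutamide 0 passed as well, with a median of 0.02. At an unadjusted p under 0.05 the counts were 2 and 0, where 15.5% and 7.83% of all genes were. CENPE, a mitotic motor protein, was the only member to pass in any comparison between groups. It fell with PF-543 plus enzalutamide against DMSO (log2 -0.56, SE 0.10, limma adjusted p = 0.0192), and was at -0.07 against enzalutamide (limma adjusted p = 0.919). In every treated group it was below DMSO, by values from -0.56 to -0.26. The call was lost without DMSO replicate 1 or 2 and without replicate 1 or 2 of the combination.

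Relatives of the members were set beside them. Of 16 listed genes, other CDK inhibitors and paralogs of GADD45A, BTG2, TP53INP1, ZMAT3, PPM1D and RRM2B, 14 were measured and 0 passed in limma in any of the 11 comparisons between groups. At an unadjusted p under 0.05 there were 2 in each of the PF-543 comparisons, against DMSO and against enzalutamide. Of all genes, 15.5% and 7.83% were. CDKN1B, which encodes the CDK inhibitor p27, was at 0.06 with PF-543 against DMSO and at 0.03 with the combination against enzalutamide. CDKN1C, which encodes p57, was at -0.18 and 0.10. Both were closer to 0 than their paralog CDKN1A. Nothing is read from this, since CDKN1A was picked from results and both were named after their values were seen. TP53INP2, the paralog of TP53INP1, was at 0.59 (SE 0.23, limma adjusted p = 0.255) and 0.80 (SE 0.26, limma adjusted p = 0.462). Its PF-543 arrays, at 6.12 to 7.15, overlapped those without PF-543, at 5.54 to 6.59.

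The genes whose values ran most closely with CDKN1A over the 15 arrays were DHCR7 (Pearson r = 0.92), ACSS2 (0.91), ACSL1 (0.90), FASN (0.90) and MSMO1 (0.87). DHCR7 and MSMO1 are enzymes of cholesterol synthesis, and ACSS2, ACSL1 and FASN act in acetate and fatty acid metabolism. For MDM2 they were ELOVL6 (0.96), a fatty acid elongase, SLC25A36 (0.95), ACSL1 (0.92), PLA2G3 (0.91) and PRSS8 (0.91). For TP53I3 they were FCN1 (0.93), RYR1 (0.88), SLC27A5 (0.88), BLNK (0.87) and ITM2C (0.86). Over the 12 treated arrays alone the correlations were 0.89 to 0.94 for the 5 genes of CDKN1A and 0.91 to 0.94 for those of MDM2. For TP53I3 they were between 0.57 and 0.85. The 15 arrays share treatments and normalization, so these correlations are descriptions. ACSL1 stood in both the CDKN1A and the MDM2 list, and no member stood in another's list.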

How the data were processed

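RNA of 15 samples was hybridised to Affymetrix arrays. The authors deposited log2 values, 1 for each probe set, made with RMA and Transcriptome Analysis Console 4.02, per the submitters' processing notes. RMA corrects background, normalizes between arrays and summarises probes, which hides any shift common to most genes. Detection calls were not used here. GEO's platform table paired 17709 of 21448 probe sets with 1 symbol and 0 with more than 1, and left 3739 without a name here. In 20 genes the brightest of several probe sets stood for the gene, and 0 pairs of arrays were identical.

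Group means were estimated from the 15 arrays together in limma 3.58.1 (R 4.3.3), with 13 contrasts and Benjamini-Hochberg adjustment over 17687 genes within a contrast. The threshold was an adjusted p of 0.05, and 95% intervals rest on 9 residual and 3.82 prior degrees of freedom. The fit was checked on simulated data. The members, lists and tests were chosen with earlier results of these data known. Named were the members, MDM4, up to 4 genes of each list with the largest change past the threshold in a contrast, and the 5 genes closest to CDKN1A, MDM2 and TP53I3 by correlation. BAX, PMAIP1, TNFRSF10B, CDKN1B, CDKN1C and TP53INP2 were named after their values were seen. Promoter sequences came from RefSeq (GRCh38.p14). Of the 10 genes, 7 matched there. BTG2 had no value, so counts are over 6 tested members in place of 7. Alternatives covered normalization, dim genes, all probe sets, the variance model, array weights, the arrays fitted and the replicate number as a block. They also left out each array in turn, other than the single ABC294640 array, whose comparisons cannot be made without it. Sequences were searched in Python 3.11.15, and matplotlib 3.10.9 drew the figures.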

Additional observations from a re-analysis of the deposited data

How the results depend on the processing

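The count of tested members past the threshold was recomputed 187 times over 13 comparisons and 24 settings, and 185 of these gave 0, as reported. For PF-543 against DMSO, the robust prior with a trend gave 1, TP53INP1 (limma adjusted p = 0.0239), with 547 genes called in place of 100. The contrast averaged over cells without and with enzalutamide, chosen after seeing the data, also gave 1, TP53INP1, with 62 genes called, and moved TP53I3 from log2 -0.76 to -0.48. Over the other alternatives TP53INP1 lay between 0.50 and 0.71 in that comparison, with limma adjusted p from 0.0523 to 0.212, so it passed in none of them. CDKN1A lay between 0.62 and 0.91 against DMSO and between 0.60 and 0.87 with the combination against enzalutamide. MDM2 lay between 0.39 and 0.46, and between 0.33 and 0.37. The gap between arrays with and without PF-543 was 0.345 to 0.395 for CDKN1A, 0.07 to 0.0932 for MDM2 and 0.12 to 0.139 for TP53INP1 under quantile, median and cyclic loess normalization, tried after seeing the data. Genes called for PF-543 against DMSO ranged from 9 to 547 over these settings, and for the combination against enzalutamide from 0 to 47 in place of 5. With the replicate number as a block 0 members passed in all 9 comparisons it could give. Same-numbered arrays did not deviate together (26 pairs, r from -0.04 to 0.07), so the numbers pair nothing, and 3 of 14 arrays correlated best with their own number. Applying these settings to the genes of the other lists was also chosen after seeing the data. The number of arrays limits precision.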
